A study of Homo sapiens with 33 samples.

Results

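Cells that received retinoic acid (RA) together with tumor necrosis factor (TNF) were compared with cells that received TNF without RA, so the comparison asks what RA changes in cells under TNF. The cells were THP-1, a human cell line of monocytic leukaemia origin, and the arrays were chosen by the treatment named in their titles: 5 arrays of RA plus TNF and 5 of TNF, out of 33 in the series. Wells of the TNF group were given TNF at 5 ng/ml for the last 24 h of culture. Wells of the RA plus TNF group had RA at 20 nM for 16 h before TNF, at the same dose, was added together with fresh RA for 24 h. Both groups were harvested at 40 h. A vehicle group (0.1% ethanol, 6 arrays) and an RA group without TNF (20 nM, 5 arrays), also harvested at 40 h, entered the same fit. Each array came from its own culture well of the 1 cell line, so the p-values measure the spread between wells. In these bulk samples a larger share of cells expressing a gene and more RNA per cell cannot be told apart.

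RA, the active metabolite of vitamin A, binds nuclear receptors of the RAR family that sit on DNA as heterodimers with RXR, and ligand binding turns on the genes beside them. In myeloid leukaemia cells RA is best known for moving immature cells towards monocyte-like or granulocyte-like states. TNF acts through cell surface receptors that activate the NF-kB transcription factors and MAP kinases, and in monocytes it raises chemokines, cytokines and, through secondary interferon, antiviral genes.

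The arrays had been run in 2 separate runs of record numbers, called array sets here. Replicates 1 to 3 of each group lie in set 1 and replicates 4 and 5 in set 2, and the set was a covariate of the fit. Values are given for each array in that order as multiples of the array's own median signal, and fold changes and standard errors (SE) come from the log2 scale of the same values. The median signal of the 10 arrays, recovered from the deposited values, was 26.9 to 40.3 units. It averaged 31.7 ± 4.17 with RA plus TNF and 33.3 ± 5.44 with TNF (SD, n = 5 each; exact permutation p = 0.651, two-sided, where 0.00794 is the smallest possible). The 3' to 5' signal ratio of ACTB, a measure of RNA integrity, gave p = 0.333 in the same exact test. Within set 1, however, the log2 ACTB ratio was 0.906 to 1.03 with RA plus TNF and 1.33 to 1.44 with TNF. In set 2 it was 0.407 and 0.581 against 0.272 and 0.793. The same ratio of GAPDH (p = 0.373 in the exact permutation test) was 0.638 to 0.769 and 0.796 to 0.902 in set 1, and 0.280 and 0.482 against 0.406 and 0.518 in set 2, on the log2 scale. The part of these ratios in the results was not tested. Of the monocyte markers, 8 of 12 passed the brightness filter. The level summed over the 9 with a probe set was 646 to 809 times the array median with RA plus TNF and 330 to 566 with TNF. FCER1G and TYROBP were the brightest members of this sum, with means of 285 and 107 over the 10 arrays. None of the lymphocyte, erythroid or epithelial markers tested was called (limma, 1 of 10 with an unadjusted p under 0.05). The lymphocyte sum, over the 12 with a probe set, was 16.5 to 23.1 against 16.7 to 22.4.

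Of 12398 genes tested, 906 were called (7.31%) at a Benjamini-Hochberg adjusted p under 0.05 in limma. RA raised 570 of them (4.6% of the genes tested) and lowered 336 (2.71%). The rises were the larger changes: 115 genes rose at least 4-fold and 43 at least 8-fold, while 19 fell at least 4-fold and none 8-fold. Of the raised genes 564 had the same sign in both array sets, as did 332 of the lowered. Both sets entered these calls, so this is no independent check. The 5 values of each group did not overlap for 346 of the raised and 167 of the lowered genes, against 5.53% of all genes tested. Rises made up 62.91% of the calls here but 51.24% after quantile normalization (806 higher, 767 lower) and 51.45% when arrays were scaled to their trimmed mean (796 and 751). The larger number of rises therefore depends on the scaling, while 567 of the 570 rises and 334 of the 336 falls were called again after quantile normalization. Leaving out each of the 10 arrays in turn kept 368 of the rises and 180 of the falls called every time.

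**Figure D1:**
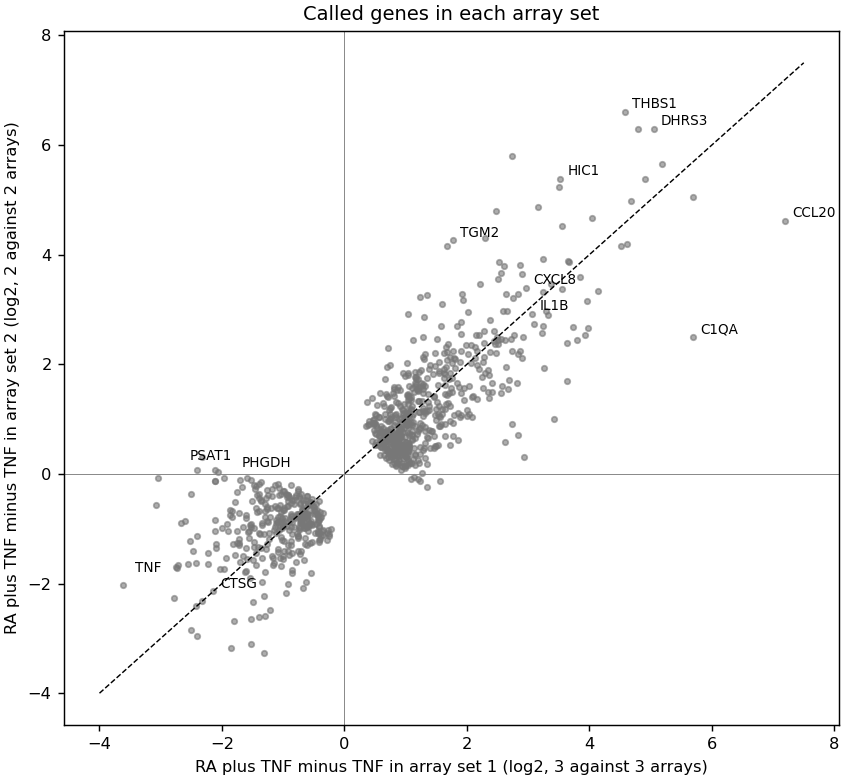
Log2 fold change of RA plus TNF over TNF for each of the 906 called genes, in array set 1 (x axis, 3 against 3 arrays) and array set 2 (y axis, 2 against 2 arrays), with the dashed line marking equal changes. Most points lie at the upper right or lower left, with the same sign in both sets, and PSAT1 and PHGDH are among the falls near 0 in set 2.

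Members of the gene lists described below were read against these shares. The brightness filter took the mean over all groups, so a gene bright with RA plus TNF alone could be tested because of its rise. The list counts include such genes. Counts after quantile normalization or trimmed-mean scaling stand against the larger totals given above for those runs. Of 23 tested genes known to respond to RA in myeloid cells, 12 rose and 1 fell. Their median log2 change was 1.21, against 0.05 over all genes tested. DHRS3, a retinaldehyde reductase and a direct RAR target, stood at 1.84, 0.782, 1.61, 0.399 and 1.00 with TNF and at 39.9, 37.6, 55.5, 54.7 and 45.2 with RA plus TNF. The groups lie far apart, by a fold change of 46.7 (log2 5.55 ± 0.31 SE, adjusted p = 3.54e-15). CD38, an NAD-consuming surface enzyme, rose from 9.03 ± 2.81 to 45.7 ± 10.1 (SD, n = 5 each), a 5.15-fold change. HIC1, a transcriptional repressor, was below the array median on every TNF array (0.245 to 0.923) and at 6.01, 4.55, 4.76, 15.0 and 17.7 with RA plus TNF (log2 4.27 ± 0.58 SE). TGM2, a transglutaminase, rose by 2.77 ± 0.67 SE on the log2 scale, from 0.266 to 1.38 with TNF to 2.36 to 5.66 with both.

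Among the enzymes, carriers and receptors of retinoid metabolism, 16 of 25 with a probe set passed the filter, and 2 rose while 1 fell. NRIP1, a corepressor of ligand-bound nuclear receptors, rose 5.47-fold from 7.15, 7.18, 6.96, 13.9 and 11.4 to 46.7, 35.8, 39.3, 54.0 and 78.3 (adjusted p = 1.95e-12). DHRS9, which oxidises retinol, fell 2.13-fold, from 113 to 150 with TNF to 47.2 to 81.5 with both. The receptors RARA (log2 -0.08 ± 0.20 SE, adjusted p = 0.895) and RXRA (0.24 ± 0.20, adjusted p = 0.599) did not pass the test. The RA-degrading enzyme CYP26A1 was too dim to be tested. It read 0.169, 0.154, 0.0886, 0.310 and 0.311 with TNF and 1.18, 0.525, 0.159, 0.239 and 1.10 with both. RARB, another dim gene, stood at 0.0819 to 0.468 and 0.0866 to 1.06, so both groups overlapped.

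Several promoters are printed here because their genes are regulated by NF-kB and moved in different directions under RA. The first 3 genes were called, CCL20 and CXCL1 higher and LTB lower, and NFKBIA and TNFAIP3 encode inhibitors of the pathway that did not pass the test. The windows come from RefSeq promoters (GRCh38.p14, the 250 bases before to 50 after each start). Only the 250 bases before the start were searched, for this and the other motifs below. Capitals mark matches to the NF-kB consensus on either strand. They lie at chr2:227813743-227813792 (CCL20, plus strand), chr4:73869294-73869344 (CXCL1, plus), chr6:31582482-31582531 (LTB, minus), chr14:35404801-35404850 (NFKBIA, minus) and chr6:137867172-137867233 (TNFAIP3, plus), all upstream of the start.
CCL20: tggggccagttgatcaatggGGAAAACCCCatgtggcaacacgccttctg
CXCL1: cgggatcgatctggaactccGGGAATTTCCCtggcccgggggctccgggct
LTB: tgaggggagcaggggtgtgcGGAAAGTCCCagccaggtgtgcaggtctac
NFKBIA: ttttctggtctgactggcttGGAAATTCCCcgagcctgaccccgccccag
TNFAIP3: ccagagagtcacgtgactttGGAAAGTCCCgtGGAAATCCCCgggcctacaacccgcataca
In CXCL1 the capitals hold 2 matches offset by 1 base. A match was found in 18.4% of the tested genes' promoters (1859 of 10093 genes with a promoter in the table), in 19.7% of the raised (90 of 456) and in 26.5% of the lowered genes (73 of 275). A match describes the letters in the window, and binding was not measured.

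Of the CXC chemokines 5 of 14 passed the filter and 2 rose, and of the CC chemokines 10 of 18 passed and 4 rose, with no fall called in either. CCL20, the ligand of CCR6 that draws lymphocytes and dendritic cells, read 0.268, 0.151, 0.144, 0.232 and 1.25 with TNF and 28.3, 33.5, 19.3, 11.7 and 15.1 with RA plus TNF. Its log2 change of 6.16 ± 0.90 SE was the largest rise of all tested genes (adjusted p = 5.65e-06), measured against TNF signals that lay below the array median on 4 of 5 arrays. CCL20 passed the brightness filter only through its RA plus TNF arrays. In set 2 its change was 4.62, behind THBS1 (6.60) and DHRS3 (6.30), and it was not called in set 2 alone (adjusted p = 0.0613). Without TNF it was at 0.103 ± 0.039 in the vehicle wells (SD, n = 6) and at 0.437 ± 0.657 after RA (SD, n = 5), so only the combined treatment had every well above the array median. The neutrophil attractant CXCL8 stood at 26.1, 18.5, 21.6, 17.1 and 15.1 with TNF and at 184, 156, 176, 153 and 185 with both, an 8.82-fold rise (adjusted p = 1.29e-08). CXCL1, another neutrophil attractant, rose from 0.0886 to 1.24 to 1.98 to 3.85 (log2 2.41 ± 0.59 SE, and 1.78 without TNF replicate 3).

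The monocyte attractant CCL2 was already at 46.2, 53.3, 54.6, 42.8 and 35.9 with TNF, and was at 347, 277, 305, 356 and 267 with both, a 6.71-fold rise. CCL4, which attracts monocytes and T cells, rose 5.99-fold (adjusted p = 0.000731). Its level with both was 40.1 to 43.7 in set 1 and 14.9 and 15.0 in set 2, each above the TNF arrays of 2.84 to 7.18. The eosinophil attractant CCL24 rose by log2 2.66 ± 0.77 SE (adjusted p = 0.0244), a call lost without TNF replicate 5 or without RA plus TNF replicate 3, 4 or 5 (adjusted p up to 0.0876). CCL5, at 140 ± 64.3 with TNF and 123 ± 56.4 with both (SD, n = 5 each), was not called (adjusted p = 0.706). The interferon-induced chemokines CXCL10 and CXCL11 had lower means with RA, at log2 -1.41 ± 0.53 SE and -2.07 ± 0.67 SE, and missed the threshold (adjusted p = 0.11 and 0.0518). For CXCL10 the TNF arrays read 68.2, 59.6, 58.0, 35.3 and 36.6, all above 34.1, 22.5, 25.2, 12.5 and 9.51 with both.

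Of 12 tested chemoattractant receptors 3 rose and 1 fell. CCR2, the receptor of CCL2, read 14.8, 13.4, 13.4, 45.1 and 37.2 with TNF and 79.6, 65.7, 65.2, 153 and 153 with both, so that ligand and receptor were both higher. Its 4.48-fold rise came with a vehicle level of 59.4 ± 15.1 (SD, n = 6). CCR1, a receptor of several CC chemokines, rose 3.8-fold and the leukotriene B4 receptor LTB4R 2.5-fold. CX3CR1, the fractalkine receptor of patrolling monocytes, fell 1.73-fold (adjusted p = 0.00467).

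**Figure D2:**
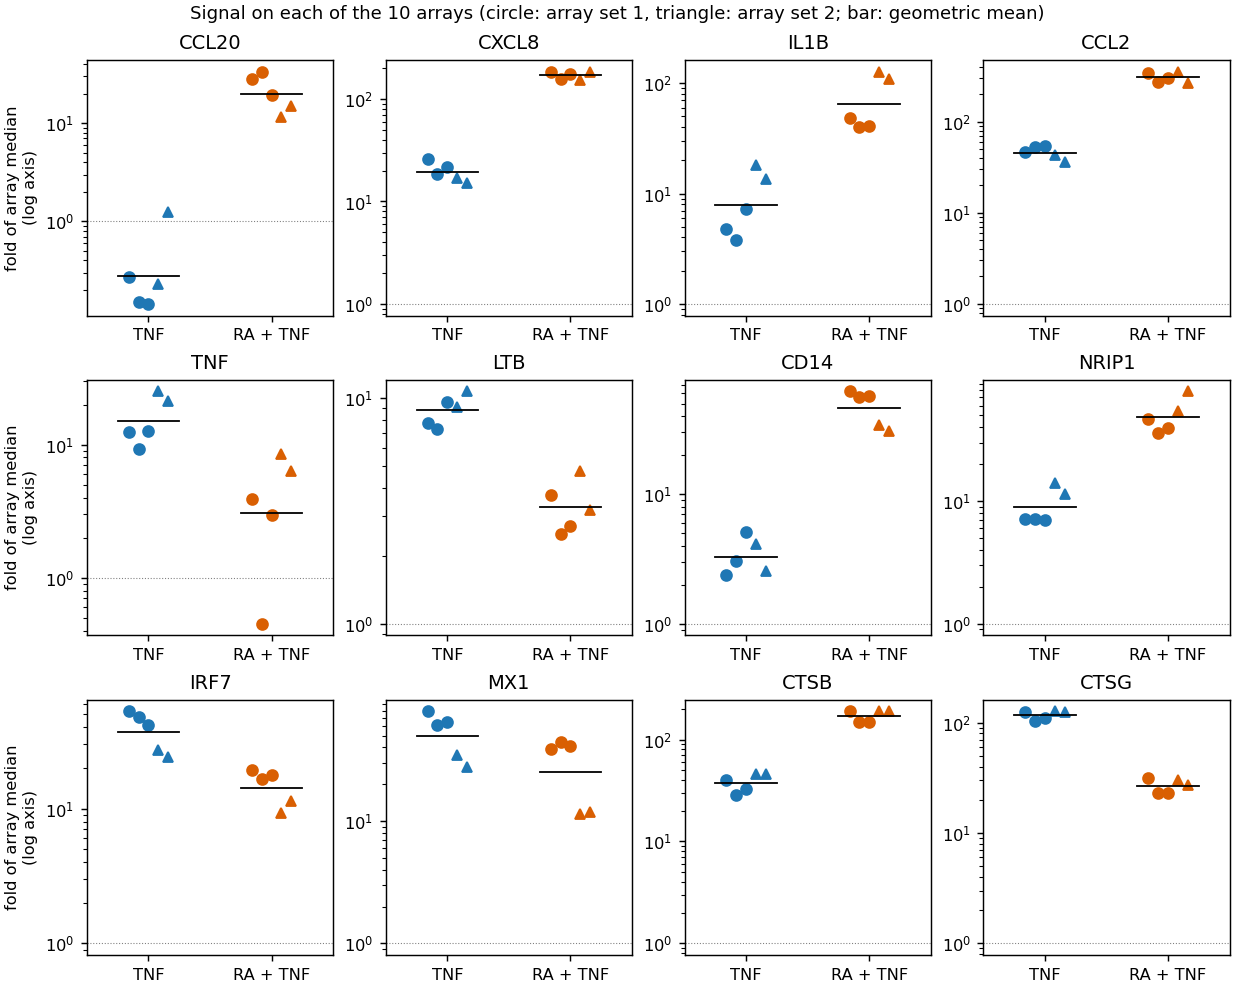
Signal of 12 genes on each of the 10 arrays, as a multiple of the array median on a log axis, with TNF on the left and RA plus TNF on the right of each panel; circles are array set 1, triangles array set 2, bars geometric means. The groups separate for all genes shown except MX1, which separates within each array set.

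In the interleukin 1 family and inflammasome list 17 of 27 genes were tested and 4 rose. Of the 4, 2 were called without each array in turn. IL1B, the secreted pyrogenic cytokine, stood at 4.78, 3.78, 7.29, 18.0 and 13.4 with TNF and at 48.4, 39.7, 40.8, 127 and 109 with both. The array sets differ in level but not in fold, with log2 changes of 3.07 in set 1 and 2.92 in set 2. CASP1, the protease that matures it, rose 1.57-fold. NLRC4, an inflammasome sensor, rose 2.4-fold, a call lost without RA plus TNF replicate 1 (adjusted p = 0.0718). IL1RN, the receptor antagonist, read 16.1 ± 3.42 and 15.9 ± 2.19 (SD, n = 5 each) and was not called (adjusted p = 0.995), nor was the sensor NLRP3 (log2 0.29 ± 0.16 SE, adjusted p = 0.358). HBEGF, an EGF receptor ligand, led the other cytokines and growth factors, where 2 of 16 tested members rose. It went from 3.57 to 6.06 with TNF to 24.2 to 76.6 with both, 8.47-fold. IL6 was too dim to be tested, at 0.0292 to 0.901 with TNF and 0.297 to 2.32 with both.

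The TNF superfamily moved in both directions, with 5 rises and 3 falls among 29 tested genes and a median log2 change of -0.02. The falls were all of ligands. TNF itself read 12.5, 9.29, 12.6, 25.1 and 21.2 in TNF wells and 3.88, 0.451, 2.97, 8.52 and 6.29 in RA plus TNF wells, a 4.89-fold fall with no overlap (adjusted p = 0.00115). On the log2 scale this fall was -2.29, and -1.66 without RA plus TNF replicate 2. LTB, a subunit of membrane lymphotoxin, fell 2.68-fold from 7.74, 7.30, 9.59, 9.17 and 10.7 to 3.70, 2.49, 2.72, 4.74 and 3.20. Another probe set of LTB changed by log2 -0.402 and was not called. TNFSF10, the death ligand TRAIL, fell 2.47-fold from 5.22 to 6.65 to 1.73 to 3.48. Its level in vehicle wells was 6.44 ± 2.00 (SD, n = 6).

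Most rises in this family were of receptors. TNFRSF9, the costimulatory receptor 4-1BB, read 2.25 to 4.05 with TNF and 13.7 to 18.4 with both (5.36-fold, adjusted p = 0.0115), and its ligand TNFSF9 rose 2.16-fold. TNFRSF1B, the second TNF receptor, rose 1.9-fold and the costimulatory receptor CD40 1.65-fold, each with overlapping groups. NGFR rose from 0.0583 to 0.480 to 1.88 to 6.71 (log2 4.80 ± 0.77 SE). TNFRSF1A, the receptor that carries most TNF signalling, was at 11.6 to 14.7 and 9.90 to 17.4 and was not called (log2 0.04 ± 0.17 SE, adjusted p = 0.936).

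Of 26 tested NF-kB components and feedback inhibitors 1 rose (3.85%, against 7.31% of all genes called in either direction), and 4 had an unadjusted p under 0.05. The difference between these shares was not tested. The gene called was IKBKE, a kinase of the pathway, at 8.97 ± 1.25 and 20.7 ± 3.53 (SD, n = 5 each; 2.3-fold). TNFAIP3, the ubiquitin editor that shuts the pathway off, read 99.0, 92.3, 98.0, 89.4 and 85.7 with TNF and 118, 99.3, 95.9, 86.5 and 111 with both. NFKBIA, the inhibitor IkB-alpha, read 237, 229, 248, 197 and 239 and 348, 295, 310, 195 and 190. Both sit far above their vehicle levels of 7.35 ± 1.44 and 29.5 ± 9.67 (SD, n = 6), and both groups overlap. Their log2 changes were 0.13 ± 0.18 SE and 0.18 ± 0.18 SE (adjusted p = 0.784 and 0.68), and for NFKBIA the sign differed between the sets (0.41 and -0.18). The subunit NFKB1 was at 30.3 ± 6.56 and 30.2 ± 4.73 (SD, n = 5 each).

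In the list of Toll-like receptors and lipopolysaccharide recognition, which also holds TREM2 and its adaptor, 7 of 24 tested genes rose and none fell. CD14, the lipopolysaccharide co-receptor and a marker of mature monocytes, was at 2.39, 3.07, 5.06, 4.10 and 2.53 with TNF and at 62.2, 56.7, 57.5, 34.4 and 30.7 with both, 14.1-fold higher (adjusted p = 9.8e-08). TLR5, the flagellin receptor, rose from 0.170 to 0.916 to 1.76 to 3.24 (log2 2.47 ± 0.54 SE). CD180, a TLR4-like surface protein, rose 3.18-fold. LY96, the MD-2 partner of TLR4, rose 3.45-fold and TLR4 2.04-fold. The call for LY96 was lost without TNF replicate 4 or 5 or RA plus TNF replicate 5 (adjusted p up to 0.092). That for TLR4 was lost without TNF replicate 3 or 4 or RA plus TNF replicate 1 or 5 (up to 0.122). TREM2, a lipid-sensing receptor, and its adaptor TYROBP rose 2.11-fold and 1.65-fold. TLR2 missed the threshold (log2 0.55 ± 0.18 SE, adjusted p = 0.0623).

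The promoter of CD14 is shown because it holds an AP-1 site, with the letters TGANTCA (both strands searched). The site was found in 11% of the raised genes (50 of 456) and 15.9% of those raised at least 4-fold (13 of 82). It was in 8.36% of the lowered genes (23 of 275) and in 6.11% of the tested genes. No test was made of these shares. The window lies at chr5:140633372-140633418 on the minus strand of GRCh38.p14, upstream of the start, and capitals mark the site.
CD14: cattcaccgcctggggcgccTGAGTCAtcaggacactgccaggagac
The 13 genes with this site raised at least 4-fold also include CXCL8, CCR2, CD36, DHRS3, TNFRSF9 and CCL24. The retinoid elements DR5 and DR2 were in no promoter window of a raised gene (0 of 456), and DR5 was in 6 of the 10093 tested, which says nothing about elements outside these 300-base windows.

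**Figure D3:**
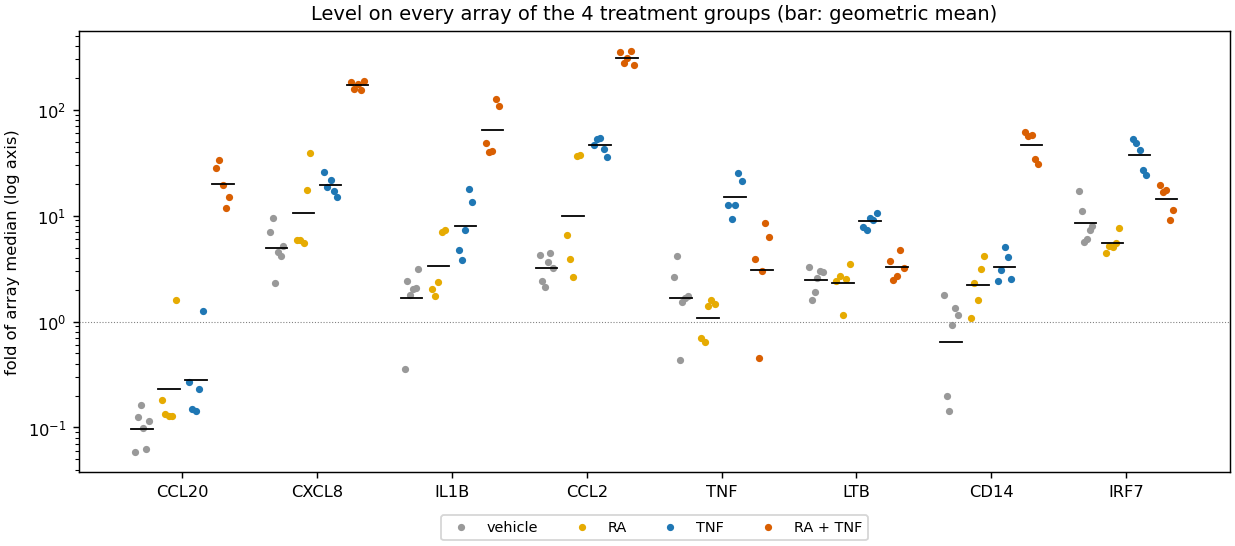
Level of 8 genes on every array of the vehicle (n = 6), RA, TNF and RA plus TNF groups (n = 5 each), as a multiple of the array median on a log axis; bars are geometric means. CCL20, CXCL8, IL1B, CCL2 and CD14 are highest with RA plus TNF, while TNF, LTB and IRF7 are highest with TNF.

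Of 53 tested interferon-response genes, 9 fell and 1 rose, with a median log2 change of -0.38, and 42 had the same sign in both array sets. After quantile normalization 18 fell and 1 rose, and with trimmed-mean scaling 21 fell and 1 rose. Falls over all genes tested also went up in these runs, from 336 to 767 and 751. IRF7, the factor that drives type I interferon production, read 52.8, 48.1, 42.0, 27.2 and 24.3 with TNF and 19.3, 16.7, 17.6, 9.19 and 11.3 with both. It fell 2.6-fold (adjusted p = 5.38e-05), and its vehicle level was 9.18 ± 4.30 (SD, n = 6). XAF1, a pro-apoptotic interferon target, fell 2.12-fold and USP18, which restrains interferon receptor signalling, 2.22-fold. MX1, an antiviral GTPase, was at 79.2, 60.9, 64.4, 34.7 and 27.5 and at 38.8, 44.6, 41.2, 11.4 and 11.9. The array sets differ in level, so the groups overlap across sets but not within either, and MX1 fell 1.98-fold. IFITM1, a membrane barrier to virus entry, fell 2.11-fold, SAMD9L 1.86-fold and the RNA-sensing synthetase OAS2 1.81-fold.

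Other antiviral genes had lower means without passing the test, among them IFIT1 at 55.8, 53.4, 60.5, 14.8 and 19.3 and at 36.3, 27.8, 25.1, 9.92 and 8.65 (log2 -0.91 ± 0.34 SE, adjusted p = 0.108). IRF9, the DNA-binding part of the interferon-activated complex, was at 18.5 to 30.8 and 19.9 to 35.8 (log2 -0.01 ± 0.18 SE). The gene that rose was IRF1, an early factor of interferon responses, from 6.28, 5.67, 5.90, 9.18 and 7.53 to 12.6, 13.5, 11.8, 20.7 and 21.5 (2.28-fold). The receptor subunits IFNGR2 and IFNAR2 rose 2.35-fold and 1.99-fold, opposite to the antiviral genes called.

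The core of the interferon-stimulated response element, searched as 2 copies of GAAA with 2 bases of any kind between them, is shown in 3 of these promoters to set called genes (MX1, IFITM1) beside one that was not (IFIT1). Both strands were searched and capitals mark the matches, which in MX1 and IFIT1 lie on the reverse strand. The windows lie at chr21:41431834-41431883, chr11:313980-314029 and chr10:89392487-89392549, all on the plus strand of GRCh38.p14.
MX1: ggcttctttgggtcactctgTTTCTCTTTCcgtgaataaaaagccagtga
IFITM1: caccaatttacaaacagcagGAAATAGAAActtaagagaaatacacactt
IFIT1: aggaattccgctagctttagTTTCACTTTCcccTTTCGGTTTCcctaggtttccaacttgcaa
Of the interferon list's 41 genes with a promoter 25 held the element (61%), against 3.37% of the tested genes. It was in 3 of 5 that fell and in 22 of 35 that were not called.

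Transcripts of 7 of 13 tested genes of the MHC class II pathway rose and none fell, with a median log2 change of 0.73. CTSS, the protease that trims the invariant chain, read 23.7, 17.9, 18.8, 16.5 and 15.4 with TNF and 68.5, 62.3, 46.2, 50.6 and 65.4 with both, a 3.17-fold rise. The class II alpha chain HLA-DRA stood at 17.5, 16.0, 23.9, 16.0 and 13.7 and at 53.1, 39.8, 49.8, 35.2 and 30.0 (2.38-fold), above its vehicle level of 6.02 ± 2.12 (SD, n = 6). HLA-DPA1 rose 2.54-fold and HLA-DMA, a subunit of the peptide-loading editor, 2.02-fold. HLA-DRB1 rose 1.65-fold (log2 0.99 in set 1 and 0.33 in set 2), but its probe set can share signal with other DRB genes. CIITA, the master activator of this family, was too dim to be tested (0.0962 to 0.888 and 0.110 to 1.37). None of 19 tested class I processing genes was called in limma, although 7 were higher at an unadjusted p under 0.05. After quantile normalization 5 of them were called higher, and 3 with trimmed-mean scaling.

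CD1D, which presents lipids to NKT cells, was at 0.0554, 1.77, 0.745, 2.45 and 2.18 with TNF and at 12.5, 8.30, 10.2, 42.3 and 41.8 with both, 21.7-fold higher. Its log2 change of 4.44 was 3.60 without TNF replicate 1, the lowest array. Among CD1 and costimulatory molecules 5 of 18 tested rose and none fell. SLAMF7 and SLAMF8, receptors of the SLAM family, rose 13.4-fold and 3.13-fold, and the checkpoint protein VSIR 1.66-fold. CD80 was not called (log2 0.20 ± 0.61 SE, adjusted p = 0.916).

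In the list of Fc and phagocytic receptors 9 of 21 tested genes rose and 1 fell. MERTK, which recognises dying cells through bridging proteins, was at 0.0554, 0.717, 0.856, 0.631 and 1.13 and at 4.68, 3.41, 4.17, 11.0 and 14.2 (log2 3.74 ± 0.63 SE, and 3.10 without TNF replicate 1). Another probe set of MERTK changed by log2 1.69 and was not called. CD300A and CD300LF, lipid-binding receptors with inhibitory tails, rose 5.69-fold and 4.05-fold. For CD300A the arrays read 4.34, 2.99, 4.02, 6.2 and 10.3 and then 23.5, 18.5, 19.1, 50.6 and 47.0. The inhibitory receptor LILRB2 rose 2.89-fold, and FCER1G, the shared signalling chain of Fc receptors, 1.71-fold, to 359 ± 32.4 (SD, n = 5). The activating receptor LILRA2 fell 1.6-fold, a call lost without RA plus TNF replicate 4 (adjusted p = 0.0626).

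Complement genes rose in 4 of 18 tested cases. C1QA, a chain of the initiating complex, read 0.0641, 0.102, 0.130, 0.543 and 1.19 with TNF and 7.49, 4.49, 3.47, 4.63 and 4.39 with both. Its log2 change was 5.69 in set 1 and 2.49 in set 2, since the TNF arrays of set 2 were higher. The other chains, C1QB and C1QC, did not pass the brightness filter. CFP, the stabiliser of the alternative pathway, rose 3.15-fold, and the complement receptor VSIG4 rose by log2 3.27 ± 0.85 SE from a level below the array median.

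Scavenger receptors and lipid-handling genes rose in 12 of 33 tested cases and fell in 1. G0S2, an inhibitor of the triglyceride lipase ATGL, was at 10.1, 10, 11.3, 12.2 and 12 with TNF and at 94.1, 70.0, 65.6, 171 and 167 with both, 9.43-fold higher (adjusted p = 9.81e-13). CD36, the receptor for oxidised lipoproteins and fatty acids, rose 6.14-fold from 6.99, 4.75, 6.83, 8.90 and 10.3 to 48.8, 40.6, 32.5, 49.8 and 56.5. APOC1, a lipoprotein component, rose 4.6-fold, and PPARG, the fatty acid-sensing nuclear receptor that drives CD36, 3.86-fold. NPC2 and LIPA, which release cholesterol from lysosomes, rose 2.59-fold and 2.08-fold. CPT1A, the gatekeeper of mitochondrial fatty acid oxidation, fell 1.73-fold, and 1 of its 3 other probe sets had the opposite sign. Genes of sterol and fatty acid synthesis had 2 falls among 23 tested, neither of which was called without each of the 10 arrays in turn. There were 11 falls after quantile normalization and 9 with trimmed-mean scaling, where all genes tested had 767 and 751.

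Of 37 tested lysosomal genes 15 rose and none fell, with a median log2 change of 0.49 (0.68 in set 1 and 0.32 in set 2), and 12 of the 15 were called without each array in turn. After quantile normalization 23 rose and 1 fell, where all genes tested had 806 rises and 767 falls. CTSB, a cysteine protease, was at 40.1, 28.3, 32.9, 45.5 and 45.9 with TNF and at 190, 149, 147, 189 and 190 with both, 4.54-fold higher. PSAP, the precursor of the sphingolipid activators, was at 140, 115, 136, 136 and 164 and at 624, 522, 531, 440 and 367, 3.56-fold higher. CTSD, an aspartic protease, rose 3.63-fold and ASAH1, the acid ceramidase, 2.28-fold. TFEB, which activates lysosomal genes, rose from 6.75 to 11.1 to 13.2 to 26.7 (log2 1.02 ± 0.21 SE).

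In the prostaglandin and leukotriene list 7 of 17 tested genes rose and 1 fell. ALOX5AP, which hands arachidonic acid to 5-lipoxygenase, read 54.2, 50.5, 55.1, 106 and 114 and then 274, 224, 226, 303 and 266, a 3.61-fold rise. LTA4H, which makes leukotriene B4, rose 2-fold and the phospholipase PLA2G4A 2.38-fold. PTGES, the inducible prostaglandin E synthase, was at 0.341, 0.154, 1.15, 0.111 and 1.27 and at 13.3, 15.4, 14.3, 19.0 and 18.9 (log2 5.38 ± 0.70 SE, and 4.79 without TNF replicate 4). PTGS2, the inducible cyclooxygenase, was too dim to be tested, at 0.0347 to 1.14 and 0.321 to 1.79. In the oxidant list 6 of 21 tested genes rose, and 3 of them were called without each array in turn. The NADPH oxidase subunits NCF1, NCF4 and CYBB rose 3.35-fold, 2.46-fold and 2.24-fold, and NCF1 read 40.1, 43.1, 50.9, 58.7 and 61.0 and then 146, 138, 128, 234 and 220. The NCF1 probe set can also read near-identical pseudogene copies. SOD2, the mitochondrial superoxide dismutase, rose 2.18-fold, a call lost without RA plus TNF replicate 3 (adjusted p = 0.0665).

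**Figure D4:**
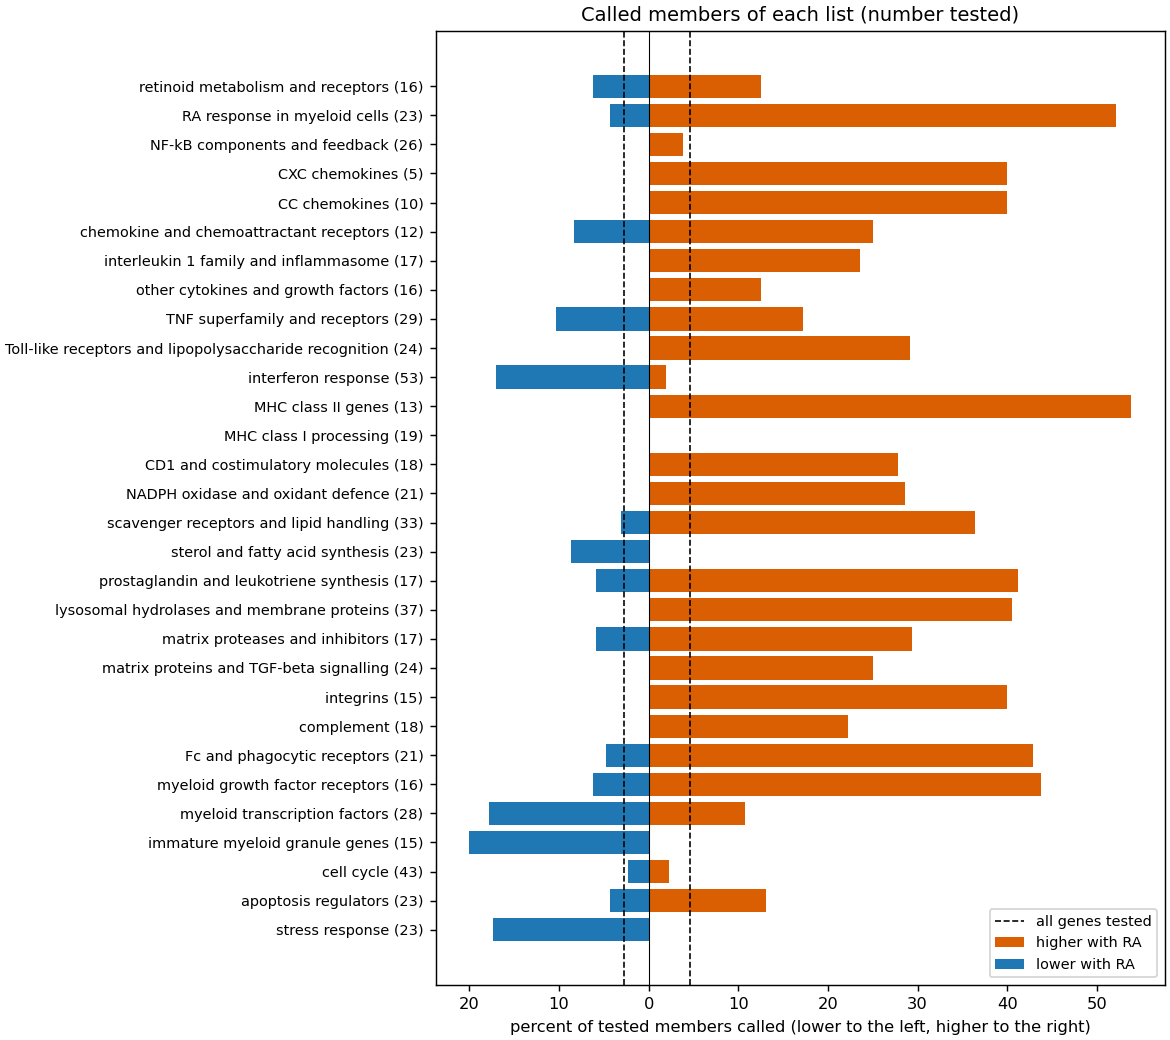
Percent of the tested members of each gene list that were called higher (right) or lower (left) with RA plus TNF than with TNF, with the number tested in brackets; dashed lines give the shares over all genes tested, 4.6% higher and 2.71% lower. MHC class II genes have 7 of 13 higher, and interferon-response genes 9 of 53 lower.

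Of 15 tested integrin subunits 6 rose, all 6 called without each array in turn, and none fell. ITGA1, a collagen receptor subunit, was at 0.108, 0.236, 0.141, 0.376 and 0.465 and at 9.62, 6.63, 7.74, 11.8 and 16.2 (log2 5.43 ± 0.62 SE). The laminin receptor subunit ITGA6 rose 20.7-fold (log2 4.37, and 3.72 without TNF replicate 2). The mucosal homing pair ITGA4 and ITGB7 rose 2-fold and 3.2-fold. ITGAM, the myeloid subunit that serves as a differentiation marker, was at 24.6 ± 11.3 and 31.6 ± 9.61 (SD, n = 5 each) and was not called (adjusted p = 0.146). THBS1, a matrix protein that activates latent TGF-beta, read 0.781, 0.0869, 0.227, 0.0996 and 0.734 and then 5.00, 4.23, 10, 21.3 and 32.4 (log2 5.39 ± 0.79 SE). The ligand BMP2 rose 4.25-fold, the mediator SMAD3 2.48-fold and the receptor TGFBR2 1.73-fold, within 6 rises and no fall among 24 matrix and TGF-beta genes tested. After quantile normalization 2 genes of this list fell, and 3 with trimmed-mean scaling.

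Matrix proteases and inhibitors had 5 rises and 1 fall among 17 tested. Only 1 rise and 1 fall of these were called without each array in turn. MMP2, a gelatinase, was at 4.25, 3.59, 2.70, 5.42 and 3.79 and at 41.8, 26.6, 31.7, 67.6 and 69.7, 11.4-fold higher (adjusted p = 1.38e-13). PLAUR, the urokinase receptor, rose 1.74-fold and ADAM28, a membrane protease, by log2 3.37 ± 0.88 SE (2.67 without TNF replicate 1). Both calls were lost without RA plus TNF replicate 1 (adjusted p = 0.0523 and 0.0564). TIMP3, an inhibitor of these proteases and of TNF shedding, fell 2.03-fold, with log2 changes of -1.37 in set 1 and -0.50 in set 2.

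Receptors for myeloid growth factors and cytokines rose in 7 of 16 tested cases and fell in 1. CSF1R, the macrophage colony-stimulating factor receptor, read 10.1, 12.3, 10.5, 20.6 and 22.0 and then 41.6, 31.5, 29.9, 53.6 and 43.4 (2.74-fold). IL10RA, the ligand-binding chain of the interleukin 10 receptor, rose 2.63-fold, and FLT3, a receptor of early progenitors, by log2 1.35 ± 0.25 SE. The transcription factors of myeloid cells had 3 rises and 5 falls among 28 tested. MYB, which maintains immature haematopoietic cells, fell 1.88-fold from 154, 152, 154, 178 and 196 to 103, 85.1, 84.4, 83.3 and 86.9. MYC fell 1.69-fold and KLF4, a monocyte factor, 2.02-fold. The C/EBP factors CEBPD and CEBPA rose 1.71-fold and 1.58-fold, while SPI1 (PU.1) was not called (log2 0.37 ± 0.23 SE, adjusted p = 0.431).

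Of 15 tested granule and other genes of immature myeloid cells 3 fell, the proteases CTSG and ELANE and the membrane protein MS4A3. The call for MS4A3 (log2 -0.72) was lost on leaving out any of 6 of the 10 arrays (adjusted p up to 0.136). CTSG, cathepsin G, was at 124, 104, 111, 127 and 124 with TNF and at 31.5, 23.1, 22.8, 30.3 and 27.1 with both, a 4.41-fold fall (adjusted p = 1.33e-12) from a vehicle level of 387 ± 69.7 (SD, n = 6). ELANE, neutrophil elastase, fell 1.5-fold with overlapping groups, and AZU1 was not called (log2 -0.10 ± 0.16 SE, adjusted p = 0.827). Of 43 tested cell cycle genes 1 rose and 1 fell. After quantile normalization 2 rose and 6 fell, and with trimmed-mean scaling 3 rose and 3 fell. CDKN1A, the inhibitor p21, rose 1.92-fold and CDK6 fell 1.64-fold, with 1 of its 6 other probe sets of the opposite sign. The proliferation marker MKI67 was at 38.7 ± 10.2 and 32.4 ± 4.67 (SD, n = 5 each; adjusted p = 0.526).

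Apoptosis regulators had 3 rises and 1 fall among 23 tested. Of these, 1 rise and the fall were called without each array in turn. BCL2 fell 2.57-fold from 11.2, 8.28, 11.7, 18.3 and 20.6 to 4.75, 4.37, 4.69, 4.64 and 8.06, while the related survival factor BCL2A1 rose 3.03-fold. Other probe sets of BCL2 changed by log2 -1.28 and -0.597 and were not called. In the stress response list 4 of 23 tested genes fell. TRIB3, a target of the ATF4 pathway, read 122, 113, 126, 64.0 and 79.8 and then 33.5, 37.7, 33.8, 50.7 and 49.8. PSAT1, a serine synthesis enzyme, read 159, 152, 179, 124 and 169 and then 41.5, 36.0, 36.1, 117 and 148, so the groups separated in set 1 (log2 -2.11) and hardly in set 2 (-0.14). Its call was lost without RA plus TNF replicate 2 or 3 (adjusted p up to 0.0527). PHGDH, which acts earlier in serine synthesis, fell by 1.21 on the log2 scale, a call lost on leaving out any of 7 of the 10 arrays (adjusted p up to 0.147). SESN2, a stress-induced restraint on mTOR signalling, fell by 1.76 in set 1 and by 0.33 in set 2 on the log2 scale. The median log2 change of the list was -0.36 in set 1 and 0.20 in set 2.

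The largest rises outside these lists included SYT2, a vesicle calcium sensor, from 0.290 ± 0.177 to 11.0 ± 5.10 (SD, n = 5 each; log2 5.40 ± 0.61 SE), and CHST15, a chondroitin sulfotransferase (log2 5.09 ± 0.51 SE). The largest fall was of ART3, an ADP-ribosyltransferase family member, from 3.70, 1.79, 2.24, 0.808 and 2.54 to 0.688, 0.126, 0.0922, 0.179 and 0.688 (log2 -2.98 ± 0.69 SE, adjusted p = 0.00359). All 5 signals with both were below the array median. In set 2 the change of ART3 was -2.03, smaller in size than that of TEC (-2.96), and it was not called in set 2 alone (adjusted p = 0.228). On the log2 scale SYT17, a synaptotagmin, fell by 2.58, TEC, a tyrosine kinase of blood cells, by 2.63, and ARHGAP23, a GTPase-activating protein, by 2.64. Other probe sets of ARHGAP23 changed by -0.479 and -0.331 and were not called. The ARHGAP23 call was lost with the mean of all probe sets and in set 2 alone (adjusted p = 0.0591). DLL1, a Notch ligand, fell 5.01-fold from 6.79, 3.93, 4.86, 4.76 and 4.16 to 1.00, 0.170, 2.60, 2.34 and 0.785 (log2 -2.32, and -1.72 without RA plus TNF replicate 2).

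The same RA treatment without TNF, compared with vehicle, shares no array with this comparison. It called 518 genes (4.18%), 347 higher (2.8%) and 171 lower (1.38%). Of the 570 genes that RA raised under TNF, 239 were also raised by RA alone, 1 was lowered, and 523 had the same sign. Their median log2 change was 1.09 under TNF and 0.61 without it. Of the 336 lowered genes 88 were also lowered by RA alone, 1 was raised and 285 had the same sign, with medians of -0.96 and -0.43. The first median of each pair comes from the contrast that chose the genes, so the medians are a description.

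The difference between the 2 RA effects was tested for each gene as an interaction. It was called for 53 genes (0.427%), 33 with a higher and 20 with a lower effect under TNF. All 53 had the same sign in both array sets, but both sets entered the calls, so this is no independent check. Of the 53, 24 were called without each of the 10 arrays in turn. Those 24 include G0S2, raised by log2 3.24 under TNF and 1.01 by RA alone, a difference of 2.22 ± 0.32 SE (adjusted p = 0.000166). CTSB changed by 2.18 and 0.75, NRIP1 by 2.45 and 1.09 and EMP2, a tetraspan membrane protein, by 2.52 and 0.66. CEBPD rose by 0.77 under TNF and fell by 0.56 with RA alone. ATP13A2, a lysosomal polyamine transporter, had the largest of these differences, 3.08 ± 0.56 SE, from 0.939, 0.774, 0.122, 0.672 and 0.574 with TNF to 7.67, 7.02, 6.16, 5.30 and 5.82 with both. In vehicle and RA wells it was at 1.84 ± 0.78 (SD, n = 6) and 2.62 ± 0.45 (SD, n = 5). CD300LF differed by 1.64 ± 0.30 SE. The interaction calls for CTSB, NRIP1 and CD300LF were lost without the array set term and without the intensity trend. That for EMP2 was lost without the array set term. Those for NRIP1 and EMP2 were also lost with the mean of all probe sets, where 23 interactions were called.

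Among the inflammatory genes the interaction for CXCL8 was 2.02 ± 0.47 SE (adjusted p = 0.037) and for IL1B 1.85 ± 0.42 SE (adjusted p = 0.0322). The call for CXCL8 was kept only without TNF replicate 1 and without RA plus TNF replicate 5 (adjusted p up to 0.1). For IL1B it was kept only without TNF replicate 3, TNF replicate 4 and RA plus TNF replicate 5 (up to 0.0831). CCL20 (4.87 ± 1.25 SE, adjusted p = 0.0785), CD14 (1.99 ± 0.63 SE, adjusted p = 0.236) and CCL2 (1.06 ± 0.53 SE, adjusted p = 0.68) were not called. NFKBIA fell by 0.92 with RA alone and was not called under TNF, an interaction of 1.10 ± 0.24 SE. Leaving out any TNF or RA plus TNF array of set 1 lost this call (up to 0.069). IFNGR2 differed by 1.13 ± 0.25 SE, a call lost without TNF replicate 4 or 5 or RA plus TNF replicate 1, 2 or 3 (up to 0.065). ORM1, an acute-phase protein, rose 4.57-fold under TNF, with a difference of 3.72 ± 0.80 SE. Its rise was not called without TNF replicate 5 (adjusted p = 0.0682) nor its interaction without TNF replicate 5 or RA plus TNF replicate 2 (up to 0.0567).

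In the other direction AKR1C1 and AKR1C2, ketosteroid reductases, rose with RA alone by log2 2.12 and 2.08. Under TNF they did not pass the test (-0.37 ± 0.22 SE and -0.33 ± 0.23 SE, adjusted p = 0.406 and 0.499). AKR1C1 was at 5.88 ± 1.43 in vehicle (SD, n = 6), 26.2 ± 7.54 with RA, 11.7 ± 3.07 with TNF and 9.01 ± 2.38 with both (SD, n = 5 each). The 2 genes are near-identical and their probe sets may share signal. The interaction call for AKR1C1 was lost with the mean of all probe sets. BMP8B, a BMP ligand, was at 106, 78.8, 89.8, 135 and 155 with TNF and at 36.1, 31.2, 29.9, 25.7 and 31.7 with both. The vehicle wells averaged 117 ± 26.3 (SD, n = 6) and the RA wells 99.0 ± 19.9 (SD, n = 5), so the fall was seen with TNF present (interaction -1.63 ± 0.23 SE). 1 of its 2 other probe sets had the opposite sign, and the interaction call was lost with the mean of all probe sets. For DHRS9 the vehicle wells averaged 199 ± 43.4 (SD, n = 6) and the RA wells 197 ± 52.4 (SD, n = 5), with an interaction of -1.09 ± 0.24 SE. This call was lost without TNF replicate 1 or 3 or RA plus TNF replicate 4 (up to 0.0572). The non-coding PWAR6 differed by -1.72 ± 0.34 SE, a call lost without the array set term and without the intensity trend. It was also lost with the mean of all probe sets. DDIT4L (-2.37) was kept only without TNF replicate 5, and LINC02987 (-2.19) only without TNF replicate 2 and RA plus TNF replicates 1, 2 and 5 (adjusted p up to 0.129 and 0.0737). Under TNF another probe set of LINC02987 changed by log2 0.76 and was not called, against -1.98 for the probe set used.

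**Figure D5:**
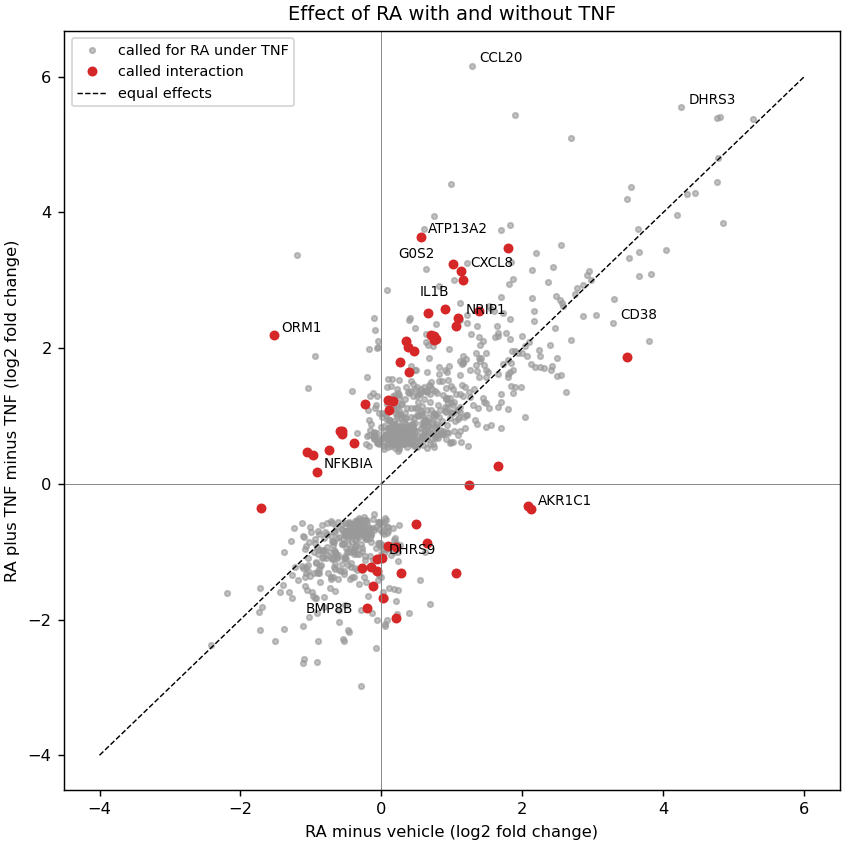
Log2 effect of RA with TNF (y axis, RA plus TNF minus TNF) against its effect without TNF (x axis, RA minus vehicle) for the 906 called genes in grey and the 53 genes with a called interaction in red. ATP13A2, G0S2 and ORM1 lie above the dashed line of equal effects, and AKR1C1 and BMP8B below it.

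Whether RA turns TNF-responsive genes up or down as a class was measured across the array sets, because the TNF arrays enter both contrasts. Genes that TNF raised in set 1 (399 genes) had a median RA effect under TNF of log2 -0.06 in set 2, against -0.05 over all genes tested there. Of these 40 were called higher and 34 lower in set 2, where 2.95% of all genes were called higher and 2.03% lower. In the other order 581 genes raised by TNF in set 2 had a median of 0.05 in set 1, against 0.11 over all genes, with 64 higher and 58 lower (3.4% and 1.63% of all genes). Genes lowered by TNF in set 1 had 34 higher and 32 lower of 249 in set 2, and those lowered in set 2 had 26 higher and 16 lower of 307 in set 1. Called changes in both directions were thus found among TNF-raised and TNF-lowered genes; these shares were not tested. Of the 129 raised at least 4-fold by TNF in set 1, 17 were higher and 11 lower in set 2.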

How the data were processed

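Total RNA was hybridised to Affymetrix HG-U133 Plus 2 arrays, which cover 54675 probe sets. Values were deposited as log2 of the signal over the array's median. GCOS made the signals, per the submitters' processing notes (version not given in the sources used here), and the centring was read from the values. Signals recovered on that basis had a trimmed mean (2% removed at each end) of 150 on every array. Such scaling removes any change in total RNA per cell, and the number of arrays limits precision.

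Probe sets with 1 gene symbol (41091) were kept, those with several (1801) or none (11721) were not. The brightest probe set, by mean linear value over all 33 arrays, represented each of 19775 genes. Genes with a mean under 0.882 of the array median over the 21 arrays at 40 h were not tested, which left 12398. The RA plus TNF arrays count in this mean, so a gene bright in those alone could pass. The deposited log2 values entered limma 3.58.1 (R 4.3.3; lmFit, eBayes with an intensity trend) with group and array set as terms (16 residual degrees of freedom). All adjusted p-values for genes are from this fit, Benjamini-Hochberg over all genes tested, and the code was tested on simulated data. Where a group's mean level lay below 1, log2 changes are given without a fold. The 0.05 threshold was used throughout. Whether replicate numbers pair the wells is not known. Deviations of same-numbered arrays from their group means within each set correlated at 0.01 to 0.07. The own number was the best match for replicates 3, 4 and 5. With so few arrays per group and set, this check cannot decide.

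Named genes were the 12 largest rises and falls, a set of followed genes, up to 4 members per list and the 6 largest interactions each way; further members were named after their values were seen. The comparison, lists and rule were chosen with earlier results of these data known. Alternatives covered normalization, a signal floor, the brightness filter, probe set choice, the arrays fitted, the array set term, the replicate block, the intensity trend and leaving out each array.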

Additional observations from a re-analysis of the deposited data

Results flagged for a closer look

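The difference between the RA effect under TNF and that without TNF was called, by the interaction test, for 19 of the genes named above. Some of them were named because of this test, so the count does not describe the named genes in general. The calls for DHRS9, CXCL8, IL1B, NFKBIA, IFNGR2, ORM1, DDIT4L and LINC02987 were lost on leaving out single arrays. The remaining calls were kept without each array in turn. The log2 differences were positive for ORM1 (3.72), ATP13A2 (3.08), G0S2 (2.22), CXCL8 (2.02), EMP2 (1.86), IL1B (1.85), CD300LF (1.64), CTSB (1.43), NRIP1 (1.36), CEBPD (1.33), IFNGR2 (1.13) and NFKBIA (1.10). They were negative for AKR1C1 (-2.49), AKR1C2 (-2.41), DDIT4L (-2.37), LINC02987 (-2.19), PWAR6 (-1.72), BMP8B (-1.63) and DHRS9 (-1.09).

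Single arrays stood apart from the other 4 of their group in 12 of 306 groups of 5 checked by Dixon's test, where chance gives about 1 in 20. With TNF these were CCL20 on replicate 5 (1.25 times the array median, against 0.144 to 0.268), CX3CR1 on replicate 4 (27.7), CASP1 on replicate 2 (16.5), MERTK on replicate 1 (0.0554) and ATP13A2 on replicate 3 (0.122). With RA plus TNF they were TYROBP (158), PPARG (11.5) and MYB (103) on replicate 1, BCL2 (8.06) and RARA (7.32) on replicate 5, SESN2 on replicate 3 (4.48) and PWAR6 on replicate 4 (1.65).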

How the results depend on the processing

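No called gene named in the text reversed its direction under any alternative run. Of 150 genes named, the call was lost for 33 without the array set term, 26 in set 1 alone, 34 in set 2 alone, 21 of the 146 that have a value with the mean of all probe sets and 12 without the intensity trend; quantile normalization, trimmed-mean scaling and the signal floor lost none and added 3, 4 and 4. Calls lost with the mean of all probe sets include those of BCL2, LTB, MERTK, MMP2, DLL1, LIPA, ASAH1 and CYBB. Rises numbered 570, but 286 without the array set term and 366 in set 2 alone. Falls numbered 336, but 767 after quantile normalization, 751 with trimmed-mean scaling, 116 without the array set term and 202 in set 1 alone. Leaving out 1 array gave 414 to 554 rises and 239 to 371 falls. Interactions numbered 53, but 189 after quantile normalization, 162 with trimmed-mean scaling, 119 with a floor of 16 signal units, 23 with the mean of all probe sets, 7 without the array set term and 11 without the intensity trend, and 28 to 62 with 1 array left out; the cause of these shifts was not tested. In single sets the interaction was estimated, but its calls were not counted. With only the 10 arrays compared it has no value. The replicate block, although it is not known whether the numbers pair the wells, gave 574 rises, 339 falls and 52 interactions. Signals near the array minimum have no reliable fold, so changes of dim genes are imprecise.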
